A study of Mus musculus with 6 samples.

Results

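The 39 Hox cluster genes of the mouse were examined in whole embryonic kidneys. Members were the genes of a 24749-gene table whose identifiers map to a symbol made of Hox, a cluster letter (a, b, c or d) and a paralogue number, 11 in cluster a, 10 in cluster b and 9 each in clusters c and d. RNA from dissected E15.5 kidneys (embryonic day) of mixed strain was sequenced in 2 groups of 3 libraries. The knockout group carried Foxd1cre with the conditional alleles Yapc/c and Tazc/c. The wild-type group was Cre negative, and the sources used here do not say whether it carried conditional alleles. Foxd1 drives Cre in the stromal lineage, so nephron, ureteric and endothelial cells of the knockout kidneys should keep both genes, and each library holds RNA of all these cells. In such bulk RNA, fewer cells of a type and less RNA per cell cannot be told apart. Since no source ties a library to its own embryo or litter, p-values reflect library-to-library spread only, part of which may be technical.

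Hox genes encode homeodomain transcription factors that give cells their position along the body axis. They lie in 4 clusters, and members with the same paralogue number descend from one ancestral gene and often share functions. Low numbers are used from the hindbrain backwards and high numbers only towards the tail, so the set of active numbers records the axial level of a tissue. In the metanephric kidney the paralogues numbered 11 act with Eya1 and Pax2 in the induction of Six2 and Gdnf, those numbered 10 are needed for the organisation of the Foxd1-positive stroma, and Hoxb7 is a classical gene of the ureteric bud and collecting duct.

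Values are FPKM, fragment numbers scaled to transcript length and library depth, so that levels of different genes can be compared. Library depth was approximated at 12800000 to 15500000 fragments from the lowest steps of the values. The conditional gene Wwtr1, which encodes TAZ, was lower in knockout kidneys, at 12.9 ± 0.635 against 18.8 ± 1.26 FPKM (SD, n = 3 each; limma adjusted p = 0.0235, log2 change -0.51), whereas Yap1 measured 51.0 ± 4.95 and 45.4 ± 2.94 FPKM and was not called (log2 change -0.16, adjusted p = 0.378). The Wwtr1 call was lost without wild-type library 2 or without any 1 knockout library (adjusted p up to 0.117), and with libraries scaled to equal sums (0.0517). The kidney markers Six2 (5.39 ± 0.320 FPKM in wild-type, SD, n = 3), Pax2 (6.76 ± 0.327 FPKM) and Wt1 (37.6 ± 1.97 FPKM) were present. Wild-type library 3 stood apart. It was the highest library for 7 of 9 nerve and glia markers and 7 of 7 skeletal muscle markers, whose summed level was 79.8 and 70.7 FPKM there against 9.59 to 12.8 and 5.80 to 13.4 FPKM in the other 5 libraries. It was also the highest for 5 of 7 adrenal cortex markers (summed level 7.28 FPKM, against 5.07 to 6.08 FPKM). For 8 proximal tubule markers its summed level was the lowest (69.9 FPKM, against 94.4 to 131 FPKM). For the Hox genes wild-type library 3 was the highest library for 0 of 32 genes tested, against 15.1% of all genes. Knockout library 3 was likewise the highest for 0 of the 32, and wild-type library 1 for 1. Among the wild-type libraries, library 3 had the highest Hox median, 103% of the wild-type mean against 94.3% and 100%. The part of the nerve, muscle and adrenal RNA in its Hox values was not tested.

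Wild-type kidneys expressed the clusters mainly from paralogue 2 to paralogue 11. Of the 39 genes, 32 reached a 6-library mean of 0.5 FPKM and were tested, and 7 did not reach that level. Hoxa10 was the highest at 36.0 ± 0.455 FPKM (SD, n = 3), which lies above 84.2% of all genes tested, followed by Hoxd8 at 33.5 ± 2.54, Hoxd4 at 29.2 ± 1.21, Hoxb7 at 27.5 ± 0.658 and Hoxb6 at 24.4 ± 3.07 FPKM. The ranges of Hoxa10 and Hoxd8 over the 3 libraries overlapped, as did those of Hoxd4 and Hoxb7, so the order within these pairs is not resolved. By range, Hoxd8 lay apart from Hoxd4, Hoxb7 from Hoxb6, and Hoxb6 from Hoxa9, the next gene at 20.1 ± 0.756 FPKM. Some gaps were narrow, with lowest and highest libraries of 26.9 and 26.3 FPKM for Hoxb7 over Hoxb6. For Hoxb6 over Hoxa9 they were 20.9 and 20.7 FPKM. Ranges over libraries do not measure errors between genes, and Hoxd4 shares 39.1% of its exon sequence with the model Gm28230. Between Hoxd9 (15.8 ± 0.356 FPKM) and Hoxc9 (6.51 ± 0.0789 FPKM) each gene overlapped with its neighbour in the order.

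**Figure D1:**
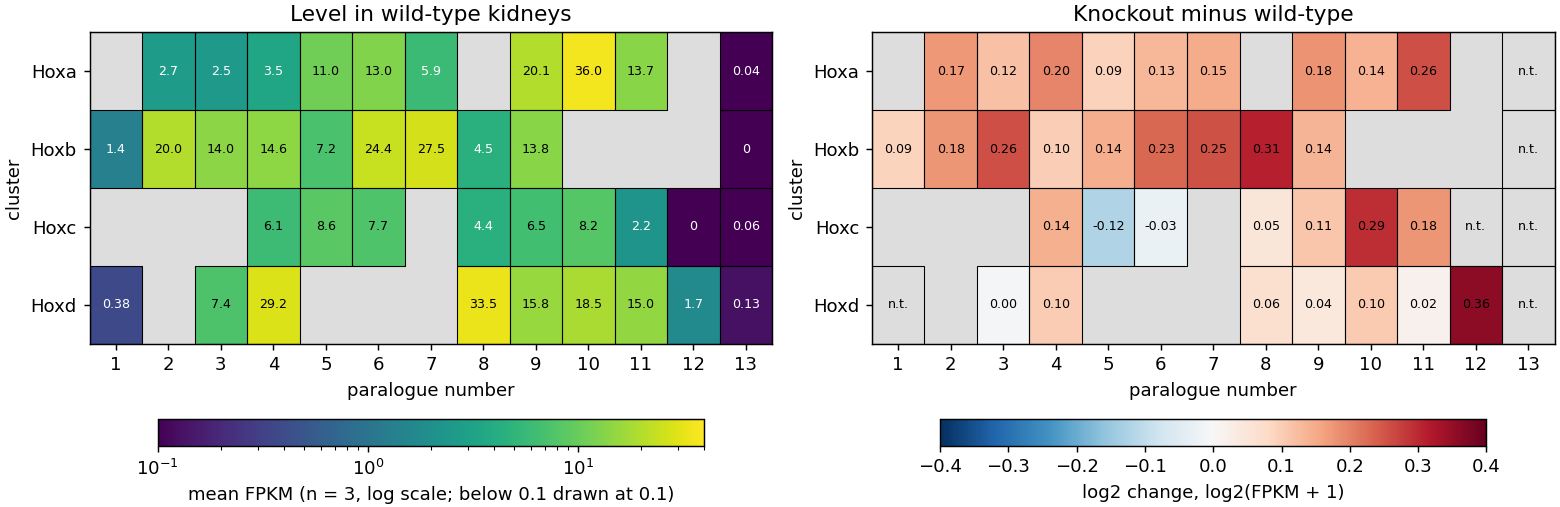
Hox genes arranged by cluster (rows) and paralogue number (columns), with the mean FPKM of the 3 wild-type libraries on a logarithmic colour scale at left and the log2 change, knockout minus wild-type, at right. Grey cells without an outline show no value, n.t. marks genes not tested, and the levels drop after paralogue 11, in cluster a from 13.7 FPKM for Hoxa11 to 0.0406 FPKM for Hoxa13 and in cluster d from 15.0 FPKM for Hoxd11 through 1.7 FPKM for Hoxd12 to 0.130 FPKM for Hoxd13.

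Summed by paralogue number, the 10 group held the largest part of Hox expression. Its 3 members made up 15.6% ± 0.455 of the summed Hox FPKM in wild-type libraries (SD, n = 3), ahead of the 9 group at 14.0% ± 0.419 and the 4 group at 13.3% ± 0.189. The 11 group held 7.69% ± 0.0745. At the posterior end of the clusters, the 12 group held 0.422% ± 0.0344 and the 13 group 0.0574% ± 0.0273. In the 10 and 11 groups the member in cluster c was the lowest. Hoxc11 measured 2.22 ± 0.524 FPKM against 13.7 ± 0.671 for Hoxa11 and 15.0 ± 0.796 for Hoxd11, and Hoxc10 measured 8.16 ± 0.763 FPKM against 18.5 ± 1.20 for Hoxd10. Cluster c contributed 10.9% ± 0.50 of the summed FPKM, against 27.0% ± 0.185 for cluster a, 31.7% ± 0.535 for cluster b and 30.3% ± 1.11 for cluster d.

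The genes that were not tested lie at the ends of the clusters. Hoxd1, the last gene of cluster d, ranged from 0.217 to 0.560 FPKM over the 6 libraries, about 5.2 to 13 fragments. Hoxd13, a gene of the digits and the genital tubercle, ranged from 0.0260 to 0.181 FPKM, about 1 to 6 fragments. Hoxc13, known for its role in hair and nails, ranged from 0.0266 to 0.0845 FPKM, about 1 to 3.1 fragments. Hoxa13, needed in the hindgut and the urogenital sinus, had a value above 0 in wild-type library 3 alone, 0.122 FPKM or about 3.9 fragments. Hoxb13 and Hoxc12 are listed at 0 in all 6 libraries. At this depth differences between genotypes were not detectable for these genes.

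Differences between genotypes were small, and most lay towards higher values in knockout kidneys. By limma 0 of the 32 tested Hox genes were called at an adjusted p under 0.05, against 0.734% of all 16899 genes tested (0.13% higher and 0.604% lower). Before adjustment, a p under 0.05 was reached by 8 Hox genes (25%) with higher values in knockout kidneys and by 0 with lower values, where 9.14% of all genes did so upwards and 6.94% downwards. Knockout and wild-type libraries did not overlap for 11 Hox genes (34.4%), all higher in knockout kidneys, where 12.5% of all genes were separated in that direction and 11.8% in the other. The log2 change lay above 0 for 29 of the 32 genes (90.6%, against 49.6% of all genes), with a median of 0.14 and a range from -0.12 to 0.36, while the median over all genes tested was 0.00. In simulated tables of 16899 genes, 200 genes were changed, none of them among the lowest. Of these changes the same procedure recovered 10% at a log2 change of 0.3 and 47.8% at 0.5. The simulated noise was independent between genes, without shifts shared by many genes of a library, so these rates are not those of the Hox genes.

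**Figure D2:**
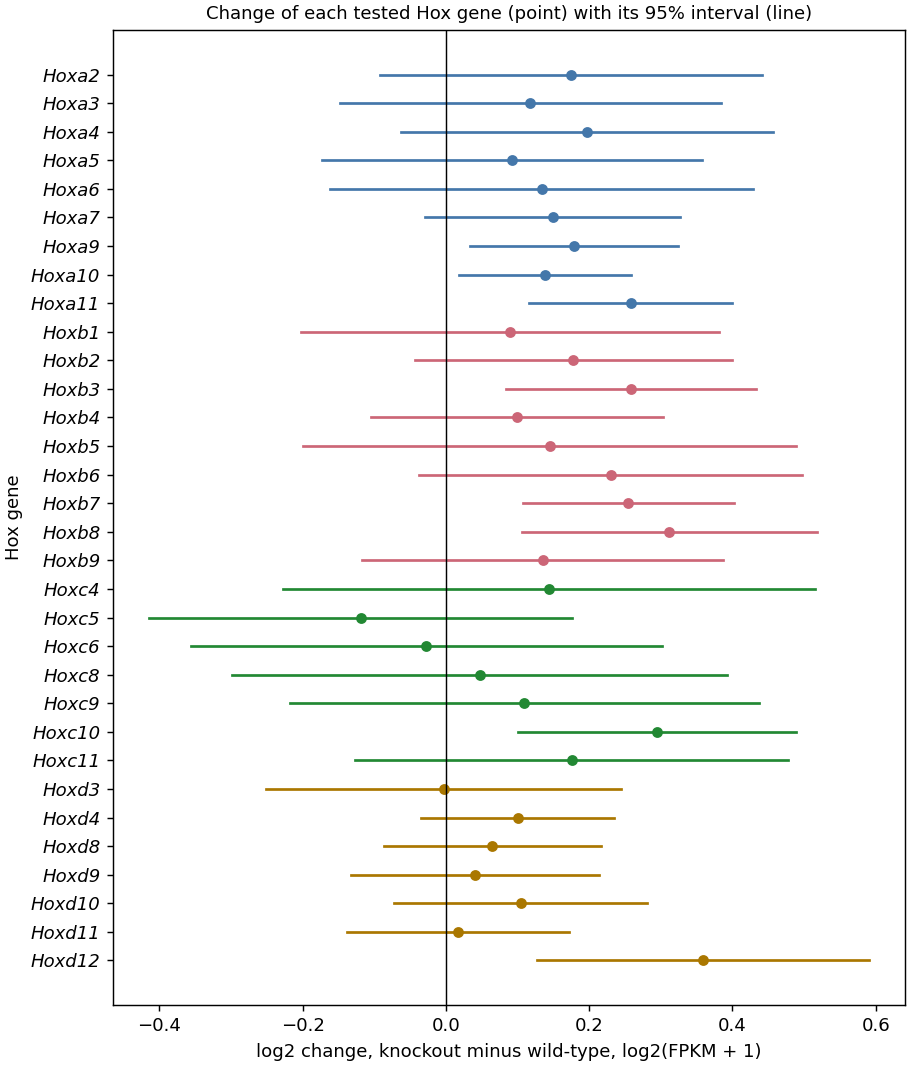
Log2 change, knockout minus wild-type, on the log2(FPKM + 1) scale (x axis) for each of the 32 tested Hox genes (y axis, ordered by cluster and paralogue number), with its unadjusted 95% confidence interval from limma as a line and the clusters in different colours. Lines of 8 genes lie wholly above 0 and none lies wholly below it.

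Knockout library 1 stood above the others. Knockout library 1 was the highest of the 6 libraries for 22 of the 32 Hox genes (68.8%), where it was the highest for 20.5% of all genes tested. The median Hox gene stood at 120% of its wild-type mean in knockout library 1, at 105% in knockout library 2 and at 106% in knockout library 3, against 94.3%, 100% and 103% in wild-type libraries 1 to 3. Summed Hox FPKM was 388, 407 and 409 in the wild-type libraries and 478, 428 and 432 in the knockout libraries, so the groups did not overlap with or without that library. Without knockout library 1, 24 genes lay above 0, the median log2 change was 0.09, 11 genes again did not overlap and were higher (34.4%, against 19.4% of all genes), and 6 had a p under 0.05 before adjustment. Without wild-type library 3 these numbers were 30 genes above 0, a median of 0.14, 14 genes that did not overlap (43.8%, against 19.7% of all genes) and 10 with such a p. Without both, 22 genes lay above 0 and the median was 0.11.

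**Figure D3:**
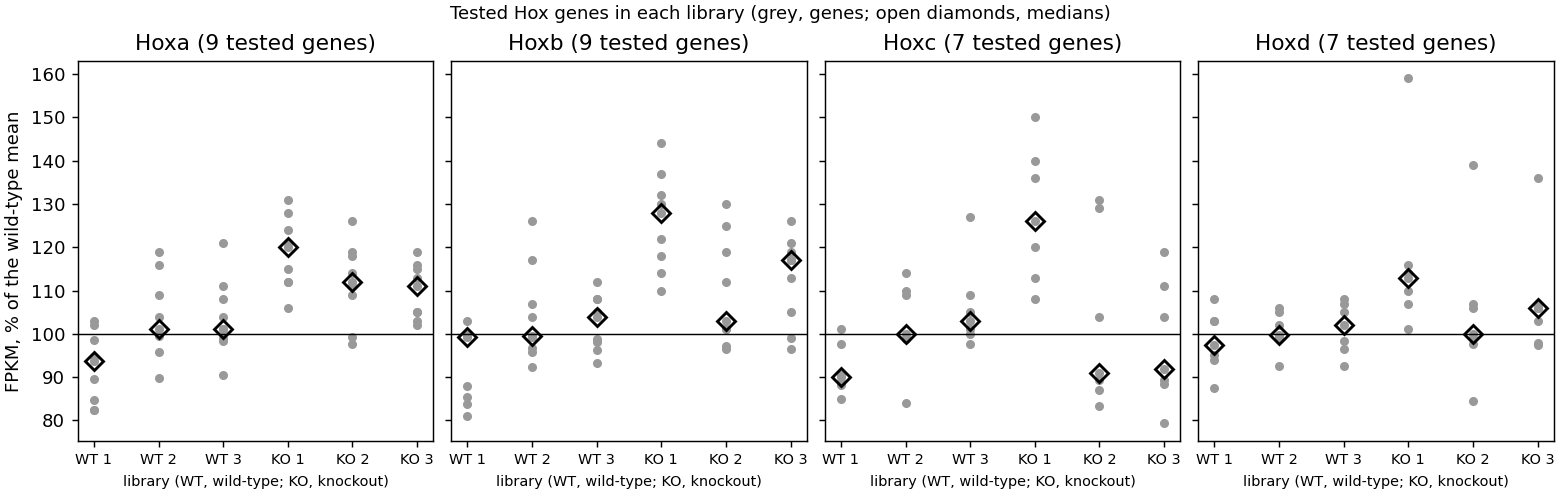
FPKM of each tested Hox gene as a percentage of its own wild-type mean (y axis) in each of the 6 libraries (x axis; WT, wild-type; KO, knockout), 1 panel a cluster, with genes as grey points and the median as an open diamond. Knockout library 1 has the highest median in every panel, and the medians of knockout libraries 2 and 3 lie above 100 in cluster a (112 and 111) but below it in cluster c (90.9 and 91.8).

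By cluster, the median log2 change was 0.15 in cluster a (9 of 9 tested genes above 0, 5 of them without overlap between genotypes), 0.18 in cluster b (9 of 9, 3 without overlap), 0.11 in cluster c (5 of 7, 1 without overlap) and 0.06 in cluster d (6 of 7, 2 without overlap). Over all genes tested, 49.6% lay above 0 and 12.5% were higher in knockout kidneys without overlap, a share that cluster c lies near. The share of cluster b in the summed Hox FPKM was 31.7% ± 0.535 in wild-type and 33.2% ± 0.715 in knockout libraries, and that of cluster d was 30.3% ± 1.11 and 28.8% ± 0.684 (SD, n = 3 each). By paralogue class the medians lay close together. The median was 0.15 for paralogues 1 to 3 (6 genes tested), 0.13 for 4 to 8 (15 genes) and 0.14 for 9 to 13 (11 genes). Paralogues 9 to 13 made up 37.8% ± 0.802 of the summed FPKM in wild-type and 37.8% ± 0.512 in knockout libraries. All 11 tested genes of this posterior class lay above 0, against 13 of 15 for paralogues 4 to 8 and 5 of 6 for paralogues 1 to 3.

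The posterior genes are given first, from the 11 group on. Hoxa11 (chromosome 6, 52242106 to 52245810, GRCm38) measured 12.9, 13.8 and 14.3 FPKM in wild-type libraries 1 to 3 and 17.0, 16.3 and 16.2 FPKM in knockout libraries 1 to 3. All 3 knockout libraries lay above all wild-type libraries and close to each other, at 121% of wild type. Its log2 change of 0.26 (SE 0.06, adjusted p = 0.131) was the one with the smallest p of any Hox gene and was not called. Its paralogue Hoxd11 (chromosome 2, 74679557 to 74687016) measured 14.7, 15.9 and 14.5 FPKM in wild-type and 16.1, 14.9 and 14.6 FPKM in knockout libraries. These groups overlapped almost fully (log2 change 0.02, SE 0.07, 95% confidence interval from -0.14 to 0.17, adjusted p = 0.927), and the direction turned with libraries scaled to equal sums (log2 change -0.0014). Hoxc11 had a log2 change of 0.18 (SE 0.13, adjusted p = 0.542).

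Hoxa11 shares 35% of its exon sequence with the antisense RNA Hoxa11os and Hoxd11 10.8% with Gm28309, which limits how exactly their levels compare. The ratio of Hoxa11 to Hoxd11 was 0.883, 0.866 and 0.985 in wild-type and 1.06, 1.10 and 1.11 in knockout libraries. Hoxa11 thus read below Hoxd11 in every wild-type library and above it in every knockout library, a difference in this ratio that was not significant. The exact two-sided permutation p was 0.1, the smallest that 3 against 3 libraries allow, and 0.4 after Benjamini-Hochberg adjustment over the 12 pairs of tested genes that share the number 9, 10 or 11, a set of pairs chosen after values were seen. Of these 12 pairs, 3 did not overlap between genotypes. The other pairs among these were Hoxa9 over Hoxd9 (1.27 ± 0.0389 in wild-type and 1.40 ± 0.0513 in knockout libraries, SD, n = 3 each) and Hoxa10 over Hoxc10 (4.43 ± 0.361 and 3.89 ± 0.0568), each with an exact permutation p of 0.1 and 0.4 adjusted.

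In the 10 group, Hoxa10 (chromosome 6, 52231197 to 52240854) measured 35.4, 36.1 and 36.3 FPKM in wild-type and 40.4, 40.9 and 37.8 FPKM in knockout libraries (log2 change 0.14, SE 0.05, adjusted p = 0.259). The groups did not overlap, but the lowest knockout library stood only slightly above the wild-type libraries. Hoxc10 (chromosome 15, 102966796 to 102971893), a gene of the lumbar level, measured 7.39, 8.16 and 8.92 FPKM in wild-type and 10.3, 10.7 and 9.71 FPKM in knockout libraries (log2 change 0.29, SE 0.08, adjusted p = 0.178). Knockout libraries were all higher, at 125% of wild type. Hoxd10 measured 19.1, 17.2 and 19.4 FPKM in wild-type and 21.6, 18.6 and 19.9 FPKM in knockout libraries, and these groups overlapped (log2 change 0.10, adjusted p = 0.535).

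Hoxd12 (chromosome 2, 74675013 to 74677705), a posterior gene best known from the limb, had the largest log2 change of the family, although it is one of the lowest genes that were tested. It measured 1.49, 1.78 and 1.83 FPKM in wild-type and 2.69, 2.37 and 2.31 FPKM in knockout libraries, 145% of wild type (log2 change 0.36, SE 0.10, adjusted p = 0.172). The groups did not overlap. Hoxa9 (chromosome 6, 52223100 to 52231089), which patterns the posterior trunk, measured 20.7, 19.2 and 20.3 FPKM in wild-type and 24.4, 21.8 and 22.4 FPKM in knockout libraries (log2 change 0.18, SE 0.06, adjusted p = 0.237). These groups did not overlap either. The other members of the 9 group, Hoxb9 (log2 change 0.14), Hoxc9 (0.11) and Hoxd9 (0.04), overlapped between genotypes.

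**Figure D4:**
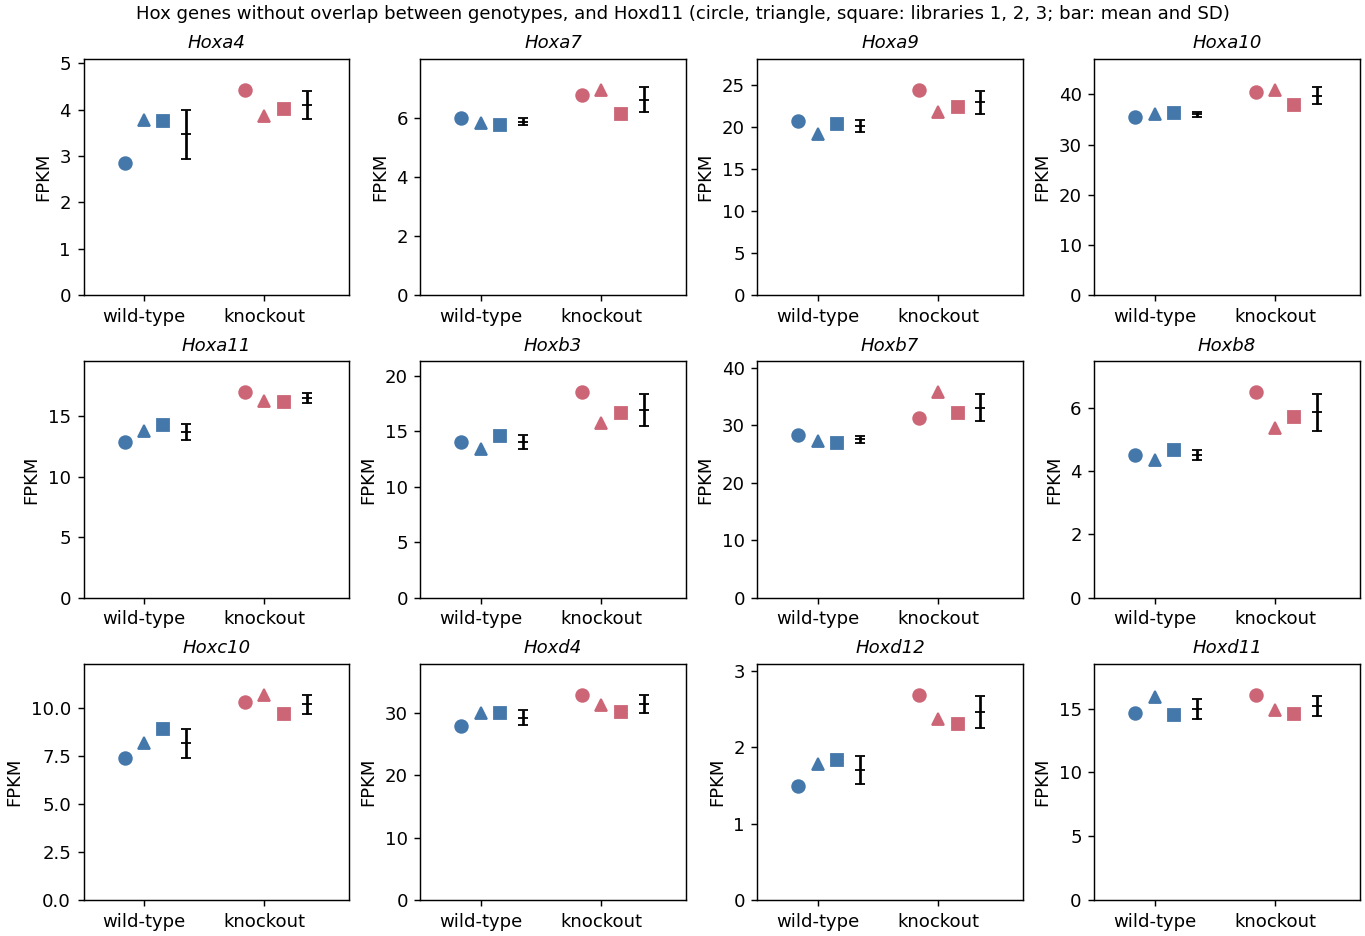
FPKM (y axes, each from 0) of the 11 tested Hox genes whose wild-type and knockout libraries do not overlap, and of Hoxd11, with libraries 1, 2 and 3 as circle, triangle and square and the mean with its SD (n = 3) beside them. Hoxa11 and Hoxd12 show all knockout libraries well above the wild-type libraries, at 121% and 145% of wild type, while Hoxd11 overlaps.

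The sequence before the start is shown for 5 genes. Hoxa11, Hoxb8 and Hoxd12 have the largest log2 changes among genes with such a sequence, Hoxa9 holds the only TEAD core of the 24 windows found, and Hoxd11 is the paralogue of Hoxa11 whose groups overlapped. Each is the 250 bases before a RefSeq transcript start (GRCm38.p6), written 5′ to 3′ on the strand of the gene. They are chr6:52245811-52246060 on the minus strand for Hoxa11, chr11:96281655-96281904 on the plus strand for Hoxb8, chr2:74674763-74675012 on the plus strand for Hoxd12, chr6:52227371-52227620 on the minus strand for a start of Hoxa9 inside the gene and chr2:74679308-74679557 on the plus strand for the upstream start of Hoxd11. Capitals mark matches on either strand to 4 motifs, the TEAD core GGAATG, a HOX and PBX composite TGATNNAT, the CDX and posterior HOX core TTTATG and the TATA box TATAAA.
Hoxa11: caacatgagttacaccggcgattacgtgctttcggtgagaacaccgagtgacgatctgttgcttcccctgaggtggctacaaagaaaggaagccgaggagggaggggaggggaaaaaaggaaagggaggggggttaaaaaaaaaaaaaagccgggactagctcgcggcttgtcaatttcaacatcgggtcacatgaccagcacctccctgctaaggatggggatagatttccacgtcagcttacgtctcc
Hoxb8: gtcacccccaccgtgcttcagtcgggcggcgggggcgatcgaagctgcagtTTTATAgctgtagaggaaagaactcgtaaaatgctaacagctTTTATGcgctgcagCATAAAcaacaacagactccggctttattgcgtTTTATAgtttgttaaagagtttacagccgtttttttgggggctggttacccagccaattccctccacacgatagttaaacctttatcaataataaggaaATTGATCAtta
Hoxd12: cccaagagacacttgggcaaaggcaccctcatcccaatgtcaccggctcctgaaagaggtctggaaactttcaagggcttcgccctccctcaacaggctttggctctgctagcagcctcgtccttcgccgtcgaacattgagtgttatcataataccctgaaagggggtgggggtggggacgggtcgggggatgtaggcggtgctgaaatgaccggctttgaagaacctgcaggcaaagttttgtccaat
Hoxa9: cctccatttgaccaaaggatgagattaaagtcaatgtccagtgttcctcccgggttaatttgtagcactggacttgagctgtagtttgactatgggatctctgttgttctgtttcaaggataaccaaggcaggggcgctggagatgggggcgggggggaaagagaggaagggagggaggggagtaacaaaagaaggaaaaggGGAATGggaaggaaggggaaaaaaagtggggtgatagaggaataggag
Hoxd11: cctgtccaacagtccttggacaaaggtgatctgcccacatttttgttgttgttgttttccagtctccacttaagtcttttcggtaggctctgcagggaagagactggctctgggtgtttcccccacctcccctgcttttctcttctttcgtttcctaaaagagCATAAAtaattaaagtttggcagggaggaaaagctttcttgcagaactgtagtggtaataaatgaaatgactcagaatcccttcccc

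RefSeq windows were found for 22 of the 39 genes, 24 windows in all, some at starts inside a longer annotated transcript. The TEAD core, the site read by the DNA-binding partners of YAP and TAZ, was in 1 of the 24 windows (4.17%, at Hoxa9) and in 12.6% of the 32851 windows of all genes. The HOX and PBX composite was in 4 (16.7%, against 7.68% of all windows), the CDX core in 5 (20.8%, against 10.8%) and the TATA box in 4 (16.7%, against 12.4%). Of the genes whose libraries did not overlap, Hoxb8 held matches to 3 of these motifs, Hoxa9 a TEAD core, Hoxa10 a TATA box, Hoxa7 the CDX core at 2 positions, and Hoxd4 a CDX core and a TATA box. The matched starts of Hoxa9, Hoxa10, Hoxa7 and Hoxd4 lie 3719, 5915, 3281 and 10049 bases from the annotated gene start. For Hoxa4, Hoxb3, Hoxb7 and Hoxc10, also without overlap, no window was found. Matches were also held by Hoxa2 and Hoxb1 (HOX and PBX composite), Hoxd3 (CDX core) and Hoxd13 (TATA box). Hoxa11 and Hoxd12 held 0 matches, which says only that these letters are not in these windows. Hoxd11 held a CDX core in the window shown and a HOX and PBX composite in its other window. Hox windows held a median of 12.5 CpG dinucleotides and 58.6% GC, against 6 and 52.4% over all windows.

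Of the central genes, Hoxb6, Hoxb7 and Hoxb8 had the largest log2 changes. Hoxb7 (chromosome 11, 96286623 to 96290162), the ureteric gene, measured 28.2, 27.3 and 26.9 FPKM in wild-type and 31.3, 35.7 and 32.1 FPKM in knockout libraries (log2 change 0.25, SE 0.06, adjusted p = 0.144). Hoxb8 (chromosome 11, 96281905 to 96285315), a gene of the trunk and the blood lineage, measured 4.50, 4.37 and 4.68 FPKM in wild-type and 6.50, 5.38 and 5.72 FPKM in knockout libraries (log2 change 0.31, SE 0.09, adjusted p = 0.178). In both genes every knockout library lay above every wild-type library, and Hoxb8 stood at 130% of wild type. Hoxb6, a gene of the posterior lateral mesoderm, measured 20.9, 26.1 and 26.3 FPKM in wild-type and 31.7, 25.1 and 29.5 FPKM in knockout libraries (log2 change 0.23, adjusted p = 0.372). Here knockout library 2 lay among the wild-type libraries. Hoxd8, the highest gene of its cluster, measured 36.1, 33.4 and 31.0 FPKM in wild-type and 33.9, 35.6 and 35.6 FPKM in knockout libraries, which overlapped (log2 change 0.06, adjusted p = 0.659).

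In cluster a, Hoxa7, which specifies thoracic vertebrae, measured 5.99, 5.84 and 5.77 FPKM in wild-type and 6.77, 6.95 and 6.14 FPKM in knockout libraries (log2 change 0.15, adjusted p = 0.387). Hoxa4, of the cervical level, measured 2.86, 3.79 and 3.76 FPKM in wild-type and 4.43, 3.87 and 4.01 FPKM in knockout libraries (log2 change 0.20, adjusted p = 0.423). Neither gene overlapped between genotypes, but for Hoxa4 the gap between the groups was narrow and wild-type library 1 was far below the other two. Hoxa7 shares 20.4% of its exon sequence with the antisense RNA Hoxaas3, which had a wild-type mean of 29.5 FPKM. Hoxa4 shares 16% with Gm29430, also on the opposite strand. Since no source says whether the libraries kept strand, reads of these pairs may not be separated. Hoxd4, a paralogue of Hoxa4, measured 27.8, 29.9 and 29.9 FPKM in wild-type and 32.9, 31.2 and 30.1 FPKM in knockout libraries (log2 change 0.10, adjusted p = 0.433), again with a narrow gap.

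The knockout libraries disagreed for Hoxc4 to Hoxc9, a run of genes singled out after their values were seen. Hoxc5, with the highest wild-type mean of the cluster, measured 7.60, 9.86 and 8.44 FPKM in wild-type and 9.30, 7.52 and 6.85 FPKM in knockout libraries (log2 change -0.12, SE 0.13, adjusted p = 0.676). Hoxc6, which acts at the thoracic and forelimb level, measured 6.56, 8.50 and 8.11 FPKM in wild-type and 9.28, 6.43 and 7.09 FPKM in knockout libraries (log2 change -0.03, adjusted p = 0.943). Knockout library 1 was thus at the top of its group in both, and knockout libraries 2 and 3 lay below the wild-type median. Hoxc4 was at 9.12 FPKM in knockout library 1 against 5.42 to 6.31 FPKM in the other 5 libraries. In the same order, Hoxc8 was at 6.06 against 3.96 to 4.82 FPKM and Hoxc9 at 9.12 against 5.77 to 6.78 FPKM. Knockout library 3 of Hoxc4 and knockout library 2 of Hoxc9 lay above all wild-type libraries. Over these 5 genes the median stood at 136% of the wild-type mean in knockout library 1 and at 89.4% and 89.3% in knockout libraries 2 and 3. Without knockout library 1 the log2 change of Hoxc4 (-0.04), Hoxc8 (-0.12) and Hoxc9 (-0.05) lay below 0.

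Cell markers were read in knockout library 1 as well. Its summed level was 10.1 FPKM for 9 nerve and glia markers and 13.4 FPKM for 7 skeletal muscle markers, against 12.8 and 10.2 FPKM and 7.27 and 11.0 FPKM in knockout libraries 2 and 3. It was the highest of the 6 libraries for 6 of 8 podocyte markers (summed level 71.8 FPKM, against 59.2 to 67.0 FPKM in the other 5) and for 5 of 8 early nephron markers (288 FPKM, against 247 to 280 FPKM). Over all genes tested it was the highest for 20.5%. Its summed level was the lowest for 8 smooth muscle markers (79.2 FPKM, against 94.1 to 203 FPKM). The same held for 8 macrophage markers (37.3 FPKM, against 39.6 to 44.4 FPKM). The part of these cells in the Hox values was not tested.

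The anterior genes included Hoxb3, for which the groups did not overlap. Hoxb3 (chromosome 11, 96323326 to 96347930), a gene of the hindbrain and the pharyngeal arches, measured 14.0, 13.4 and 14.6 FPKM in wild-type and 18.5, 15.7 and 16.6 FPKM in knockout libraries, 121% of wild type (log2 change 0.26, SE 0.07, adjusted p = 0.182). Of its exon sequence 52.9% is shared with Hoxb3os on the opposite strand, as is 27.3% of that of Hoxb2. Hoxb2, which patterns the hindbrain, measured 19.9, 18.5 and 21.7 FPKM in wild-type and 25.6, 20.3 and 22.6 FPKM in knockout libraries (log2 change 0.18, adjusted p = 0.399), with overlap. Hoxd3 had a log2 change of -0.0033 (95% confidence interval from -0.25 to 0.24), and Hoxa2 (0.17), Hoxa3 (0.12) and Hoxb1 (0.09) overlapped as well. Hoxd3 shares 53.1% and Hoxd4 39.1% of exon sequence with the read-through model Gm28230, so that the split of fragments among these 3 is uncertain. Hoxc5 and Hoxc10 share a stretch that makes up 5.37% and 8.70% of their exons.

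The remaining central genes with overlapping groups were Hoxa5 (log2 change 0.09), Hoxa6 (0.13), Hoxb4 (0.10) and Hoxb5 (0.14). Adjusted p over these 4 genes lay between 0.617 and 0.723.

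Noncoding RNAs inside the clusters were read alongside. The antisense RNA Hoxa11os (chromosome 6, 52244393 to 52249799), which covers 35% of the Hoxa11 exons on the opposite strand, measured 21.8, 19.6 and 18.9 FPKM in wild-type and 25.5, 25.7 and 25.4 FPKM in knockout libraries (log2 change 0.33, SE 0.06, adjusted p = 0.0767). It stood above its sense partner in every library and, like it, did not overlap between genotypes. Since no source says whether the libraries kept strand, reads of this pair may not be separated. Hoxa11os was called without wild-type library 1 (log2 change 0.39, adjusted p = 0.0426). Hoxb5os measured 33.8, 41.8 and 33.2 FPKM in wild-type and 43.0, 46.9 and 42.8 FPKM in knockout libraries (log2 change 0.29, adjusted p = 0.214), also without overlap. The other models of at least 1 FPKM that are not microRNAs all overlapped, namely Hoxaas3 (log2 change 0.10), Hoxaas2 (0.08), Gm15050 (0.13), Hotairm1 (-0.09), Gm53 (0.25), Gm14396 (0.17), Hoxd3os1 (-0.12), Gm28230 (0.08) and Haglr (0.04). Hotair, in cluster c, lay between 0.142 and 0.306 FPKM and was not tested.

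The clusters also carry microRNAs that target Hox messages, shown here because members of different clusters share a seed, as their host clusters share paralogues. The mature RNAs from RefSeq (GRCm38.p6) are given with the seed, bases 2 to 8, in capitals.
miR-10a-5p: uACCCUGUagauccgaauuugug
miR-10b-5p: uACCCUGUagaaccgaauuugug
miR-196a-5p: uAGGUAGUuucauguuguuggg
miR-196b-5p: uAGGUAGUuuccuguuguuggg

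The pair miR-10a and miR-10b lies beside the 4 group in clusters b and d and has the seed ACCCUGU. The seed AGGUAGU is shared by miR-196a and miR-196b, which lie near the 9 group. Values for their genes belong to hairpin models of 68 to 110 bases, on which few fragments fall, and say nothing of the mature RNA. They ranged over the 6 libraries from 4.59 to 31.8 FPKM for Mir10a, from 0 to 11.7 for Mir10b, from 59.6 to 162 for Mir196a-1, from 0 to 25.7 for Mir196a-2 and from 11.2 to 30.2 for Mir196b. Mir615, in cluster c, ranged from 0 to 18.5 FPKM.

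Of the proteins that work with or upstream of Hox factors, 5 lists were read, with 0 genes called by limma in each. Among 9 TALE cofactors, which bind DNA together with Hox proteins, 1 upward and 2 downward differences had a p under 0.05 before adjustment, where 9.14% of all genes tested had one upwards and 6.94% downwards. The median log2 change was -0.02. Pbx2, a PBC-class member, measured 22.7 ± 2.25 FPKM in wild-type and 28.2 ± 0.828 in knockout kidneys (SD, n = 3 each; log2 change 0.30, adjusted p = 0.145). Its knockout and wild-type libraries did not overlap.

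Among 16 genes of the Polycomb group, which keeps Hox genes silent, a p under 0.05 before adjustment was found for 2 upward and 0 downward differences (median log2 change 0.05), against the same 9.14% and 6.94% of all genes. Ring1, a ubiquitin ligase of this group, measured 6.10 ± 0.410 and 8.52 ± 0.663 FPKM (log2 change 0.42, adjusted p = 0.0886), and the log2 change of Phc2, another subunit, was 0.28 (adjusted p = 0.287). Of 8 trithorax and MLL genes, which keep Hox genes active, 1 upward and 0 downward differences had such a p (median 0.08), again beside 9.14% and 6.94%. The log2 change was 0.34 for Men1, the menin gene (adjusted p = 0.197), and 0.10 for Wdr5, a subunit of the same methyltransferase complexes (adjusted p = 0.45).

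Of 11 axial inducers 6 were tested, and 2 upward and 1 downward differences had a p under 0.05 before adjustment, beside 9.14% and 6.94% of all genes. Cdx4 and Evx1 are listed at 0 in all 6 libraries. Rarb, a retinoic acid receptor, measured 31.8 ± 1.45 FPKM in wild-type and 24.5 ± 1.51 in knockout kidneys (SD, n = 3 each; log2 change -0.36, adjusted p = 0.0611), and was called lower with libraries scaled to equal sums (adjusted p = 0.0295) or with a filter at a mean of 2 FPKM (0.0480). Its relative Rara measured 5.75 ± 0.616 and 8.06 ± 0.584 FPKM (log2 change 0.43, adjusted p = 0.113).

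Of 8 tested partners and targets of the 11 group in the metanephros, 4 upward and 0 downward differences had a p under 0.05 before adjustment (median log2 change 0.17), where 9.14% of all genes tested had one upwards and 6.94% downwards. Itga8, an integrin subunit of the metanephric mesenchyme, measured 39.3 ± 5.40 FPKM in wild-type and 52.0 ± 0.710 in knockout kidneys (SD, n = 3 each; log2 change 0.41, adjusted p = 0.117), and was called without wild-type library 1 (0.0167). Wt1, which marks nephron progenitors and podocytes, differed by a log2 change of 0.30 (adjusted p = 0.116). Chosen after their values were seen, Six2 (log2 change 0.18, adjusted p = 0.348) and Gdnf (-0.02, adjusted p = 0.917) are known targets of the 11 group.

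Markers of the kidney's cell types were summed in each library. The summed level of 10 nephron progenitor markers was 183 to 195 FPKM in wild-type and 207 to 220 FPKM in knockout libraries, with 9 of 10 log2 changes above 0. Much of this lay in Itga8 (mean 39.3 FPKM in wild-type and 52.0 in knockout libraries) and Spock2 (27.7 and 34.7). Cited1 (log2 change 0.05), Crym (0.06), Meox1 (0.02) and Gdnf (-0.02) hardly differed, and Six2 and Eya1 overlapped between genotypes. For 12 markers of the ureteric bud and collecting duct the summed level was 252 to 270 and 297 to 314 FPKM, with 9 of 12 above 0. Much of this lay in Krt8 (mean 70.8 FPKM in wild-type and 84.4 in knockout libraries), Krt18 (74.1 and 85.4) and Calb1 (70.1 and 82.0). Upk1b (63.0% of wild type) was lower without overlap, and Aqp2 (74.7%) and Elf5 (91.6%) were lower with overlap. For 8 early nephron markers the summed level was 247 to 270 and 278 to 288 FPKM, with 7 of 8 above 0 and 1 called higher. The 9 cortical stroma markers summed to 372 to 382 FPKM in wild-type and 370 to 379 in knockout libraries, with 4 of 9 above 0 and 1 called lower. Opposite differences lay within this sum. Ntn1 (25.8% of wild type), Foxd1 (58.9%), Rarb (77.0%) and Meis1 (89.9%) were lower without overlap. Every knockout library and no wild-type library carried Foxd1cre, and an effect of this allele on Foxd1 itself was not tested. Aldh1a2 (111%) and Ecm1 (141%) were higher without overlap. The 6 medullary stroma markers summed to 396 to 459 FPKM in wild-type and 386 to 411 in knockout libraries, with 1 of 6 above 0. Most of this sum was Cdkn1c (mean 326 FPKM in wild-type and 315 in knockout libraries), which overlapped between genotypes. Penk (62.0% of wild type) and Tnc (72.8%) were lower without overlap, and Wnt5a (115%) was higher without overlap. Lef1 and Alx1 overlapped. The 8 smooth muscle markers summed to 180 to 203 FPKM in wild-type and 79.2 to 104 in knockout libraries, and 3 of them were called lower. Over all genes tested, 49.6% of log2 changes lay above 0, 0.13% of genes were called higher and 0.604% lower. In each of these lists 0 markers were at 0 in all libraries. Their part in the Hox values was not tested.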

How the data were processed

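RNA of 3 knockout and 3 wild-type kidney libraries was sequenced. The submitters' processing notes name bcl2fastq 2.17.1.14, Salmon and GRCm38 (mm10), and no Salmon version, annotation, strand setting or filter was found in the labels. FPKM values were deposited by the authors for 24749 genes. Relative to the geometric mean of each gene, all libraries had the same median log2 ratio of 0.0038, as values scaled by median ratios would. Symbols were found for 24469 genes, and positions and exon overlaps come from GENCODE M21 (GRCm38). No 2 libraries held identical values. Depth was approximated from the lowest values of genes with 1 transcript of at least 2000 bases, as the table holds no counts.

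The 16899 genes whose mean reached 0.5 FPKM were tested on log2(FPKM + 1), with a pseudocount of 1, in limma 3.58.1 (R 4.3.3) with genotype as the only term and trend and robust moderation. Log2 changes on this scale understate those of low genes. Calls are at a Benjamini-Hochberg adjusted p under 0.05 over all genes tested. The procedure was tested on 10 simulated tables with 200 changed genes, in which 6.03% of calls were false. Values in every library are given for Hox genes without overlap between genotypes and for the 3 highest of each cluster. From each list of regulators the called genes or the 2 with the smallest p are named, and Six2 and Gdnf were added. Of the genes these rules name, 2 are not reported here. Figures and tables were made with Python 3.11.15, pandas 2.3.3 and matplotlib 3.10.9. The members, lists and pairs were chosen with earlier results of these data known. Alternatives were other pseudocounts, filters, scalings, moderation, a replicate block and leaving out libraries; leaving out wild-type library 3 and knockout library 1 together was added after seeing the data.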

Additional observations from a re-analysis of the deposited data

How the results depend on the processing

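In each of the 15 alternatives 0 Hox genes were called by limma in either direction, and their smallest adjusted p was 0.101. When 1 library was left out the median Hox log2 change lay between 0.09 and 0.18, and 24 to 31 tested genes lay above 0. Over all genes 124 were called, 52 to 147 when 1 library was left out, and 32 with the replicate number as a block. Same-numbered libraries hardly shared deviations (correlations 0.0238, -0.0422 and 0.0504), but no source says whether they share a litter or preparation. With the block 7 Hox genes had a limma p under 0.05 before adjustment, and the adjusted p of Wwtr1 was 0.108. Of 479 Hox values under alternatives, 22 turned sign, in 10 genes, and the cause was not tested. With libraries scaled to equal sums the log2 change of Hoxd11 was -0.0014. With 1 library left out, and with wild-type library 3 and knockout library 1 left out together, log2 changes ranged from -0.013 to 0.17 for Hoxa5, -0.047 to 0.24 for Hoxa6, -0.013 to 0.17 for Hoxb4, -0.045 to 0.28 for Hoxc4, -0.16 to 0.071 for Hoxc6, -0.12 to 0.14 for Hoxc8, -0.051 to 0.24 for Hoxc9, -0.068 to 0.10 for Hoxd3, -0.042 to 0.078 for Hoxd9 and -0.047 to 0.057 for Hoxd11. The same ranges were -0.41 to 0.32 for Hotairm1, -0.035 to 0.17 for Hoxaas2, -0.14 to 0.29 for Gm15050, -0.023 to 0.21 for Hoxaas3, -0.0054 to 0.43 for Gm53, -0.15 to 0.41 for Gm14396 and -0.070 to 0.15 for Haglr. Depth limits the untested genes, such as Hoxd1 with at most about 13 fragments a library.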
